A study of Mus musculus with 4 samples.

Results

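The effector genes of basophils and mast cells were followed on 4 Affymetrix whole-transcript arrays of mouse colony-forming cells. The 10 genes were taken from a named list (Mcpt8, Prss34, Cpa3, Gzmb, Fcer1a, Cd200r3, Cma1, Mcpt4, Tpsb2 and Tpsab1), and the platform annotation gave each of them 1 probe set, so all 10 were measured, among 19938 genes in all. This list and the further lists below were chosen with earlier results of these data known. Counts set beside shares of all genes therefore describe the lists and do not test them. The colonies grew from long-term (LT-HSC) or short-term (ST-HSC) haematopoietic stem cells of C57BL/6 background after transduction with CreER, a ligand-dependent Cre recombinase, or with mock. The groups were LT-HSC CreER, LT-HSC mock, ST-HSC CreER and ST-HSC mock, with 1 array each, and all 4 were grown in methylcellulose with stem cell factor, IL-3, IL-6 and GM-CSF. The series title says that the stem cells conditionally expressed the leukaemia fusion MLL-ENL. How it was carried, whether mock cells carried it too, whether CreER was activated and how old the animals were are nowhere stated in the labels. The design text describes an initial search for genes of leukaemic transformation, with CreER set against mock in either population and the populations set against each other under either transduction. Values are log2 expression per probe set, and a difference of 1 is 2-fold.

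Basophils and mast cells store proteases in cytoplasmic granules and release them when antigen crosslinks IgE bound to the receptor Fc epsilon RI. In mice the tryptase-like Prss34 and the chymase-family member Mcpt8 are characteristic of basophils, whereas the chymases Cma1 and Mcpt4 and the tryptases Tpsb2 and Tpsab1 are characteristic of connective tissue mast cells. IL-3 supports the growth of basophils and mast cells from marrow progenitors, and stem cell factor, the ligand of Kit, supports mast cells.

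The promoters of the 6 genes with the largest differences below are shown because all 6 were higher on the LT-HSC mock than on the ST-HSC mock array. Each run is the 250 bases upstream of the annotated gene start, 5′ to 3′ on the gene's strand, from RefSeq on build GRCm38.p6, and the capitals mark matches to the GATA motif. The windows are chr14:56085198-56085447 (minus strand) for Mcpt8, chr17:25298144-25298393 (plus strand) for Prss34, chr3:20242182-20242431 (minus strand) for Cpa3, chr14:56262335-56262584 (minus strand) for Gzmb, chr1:173227230-173227479 (minus strand) for Fcer1a and chr16:44943428-44943677 (plus strand) for Cd200r3.
Mcpt8: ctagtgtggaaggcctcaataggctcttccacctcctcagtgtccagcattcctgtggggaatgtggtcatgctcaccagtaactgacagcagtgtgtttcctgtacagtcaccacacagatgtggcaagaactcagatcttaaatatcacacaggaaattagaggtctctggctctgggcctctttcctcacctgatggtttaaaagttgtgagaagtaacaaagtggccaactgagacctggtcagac
Prss34: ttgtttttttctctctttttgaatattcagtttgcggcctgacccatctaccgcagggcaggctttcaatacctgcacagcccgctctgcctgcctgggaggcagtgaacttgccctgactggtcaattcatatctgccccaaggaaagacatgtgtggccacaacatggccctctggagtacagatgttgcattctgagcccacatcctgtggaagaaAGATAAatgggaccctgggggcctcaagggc
Cpa3: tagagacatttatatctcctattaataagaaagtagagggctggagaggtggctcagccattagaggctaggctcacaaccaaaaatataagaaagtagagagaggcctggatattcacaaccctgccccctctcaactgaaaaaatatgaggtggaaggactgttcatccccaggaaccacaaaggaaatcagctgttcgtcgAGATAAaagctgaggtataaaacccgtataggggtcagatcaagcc
Gzmb: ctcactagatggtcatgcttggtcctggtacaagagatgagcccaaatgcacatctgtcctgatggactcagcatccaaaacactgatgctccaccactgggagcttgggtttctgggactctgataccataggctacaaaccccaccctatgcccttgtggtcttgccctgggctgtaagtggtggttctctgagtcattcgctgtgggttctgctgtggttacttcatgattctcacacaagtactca
Fcer1a: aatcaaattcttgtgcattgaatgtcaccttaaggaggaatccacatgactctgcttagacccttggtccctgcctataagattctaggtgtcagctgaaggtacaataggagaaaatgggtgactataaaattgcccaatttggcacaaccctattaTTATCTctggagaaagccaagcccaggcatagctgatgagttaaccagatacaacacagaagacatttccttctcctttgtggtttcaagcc
Cd200r3: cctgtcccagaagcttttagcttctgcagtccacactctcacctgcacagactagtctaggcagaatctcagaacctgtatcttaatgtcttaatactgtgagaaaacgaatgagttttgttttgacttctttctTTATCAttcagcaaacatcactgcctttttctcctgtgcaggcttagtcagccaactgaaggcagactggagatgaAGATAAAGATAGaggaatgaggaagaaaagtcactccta

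The GATA motif was searched on both strands in 4 spellings, namely AGATAA as the first, TGATAA as the next, then AGATAG and lastly the spelling TGATAG. Of the 8 promoters that matched a gene of the list (none was matched for Tpsb2 and Tpsab1), 6 held it, against 26.5% of all 32841 promoter windows of this length. Prss34 and Cpa3 each held AGATAA on the gene's strand, beginning 31 and 46 bases upstream of the start. Cd200r3 held 3 matches, of which the 2 nearest the start stood side by side. Fcer1a held 1 on the opposite strand, and no match was found in the windows of Mcpt8 and Gzmb. The mast cell genes Cma1 and Mcpt4 each held 1 as well, so matches occurred in both groups of proteases. No GATA match overlapped an E-box match, and the GATA match of Cd200r3 nearest the start shared 1 base with a PU.1 match. The E-box CANNTG was found in 7 of the 8 windows and in 66.2% of all windows. The RUNX word TGTGGT was found in 5 of the 8 and in 14.0% of all, with 2 matches each in Mcpt8 and Gzmb. The PU.1 word GAGGAA was found in 3 (23.3% of all), the C/EBP word TTGCNNAA in 2 (9.57%) and the STAT word TTCNNNGAA in 0 (7.02%). A match describes letters only.

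The columns of the 4 arrays had medians between 7.75 and 7.82 over all probe sets. The signal floor, the median over probe sets with 1 gene symbol, lay between 8.07 and 8.13. As a second measure of background, 95% of the 1190 olfactory and vomeronasal receptor genes, rarely expressed outside sensory tissue, stood below 7.21 to 7.37. With 1 array a group no difference between 2 arrays has a replicate check, neighbours in an order of levels cannot be set against a spread, and no p-value is given for a pair of arrays. Each array enters both a CreER comparison and a population comparison, so the comparisons below are not independent of each other. In RNA from whole colonies, fewer cells of a type and less RNA per cell cannot be told apart.

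The basophil-type proteases stood high in LT-HSC-derived colonies and hardly differed with CreER. Mcpt8 was at 13.20 on the LT-HSC CreER array and 13.33 on the LT-HSC mock array, against 11.49 on ST-HSC CreER and 11.28 on ST-HSC mock. Prss34 was at 12.57 on LT-HSC CreER and 12.50 on LT-HSC mock, against 10.75 on ST-HSC CreER and 10.85 on ST-HSC mock. Both LT-HSC arrays lay above both ST-HSC arrays for each gene, and every value was above the floor. Mcpt8 was 3.28-fold higher in LT-HSC-derived than in ST-HSC-derived cells with CreER and 4.14-fold higher with mock. Prss34 was 3.54-fold higher with CreER and 3.14-fold higher with mock. Between CreER and mock, Mcpt8 differed by -0.12 for LT-HSC and by 0.21 for ST-HSC origin, and Prss34 by 0.07 for LT-HSC and by -0.10 for ST-HSC origin.

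Of the 4 connective tissue mast cell-type proteases, Mcpt4, Tpsab1 and Cma1 were under the floor on all 4 arrays, and Tpsb2 passed it on 2. Mcpt4, a chymase of connective tissue mast cells, read 5.81 on LT-HSC CreER and 5.74 on LT-HSC mock, against 5.91 on ST-HSC CreER and 5.55 on ST-HSC mock. Tpsab1, a tryptase that C57BL/6 mice are known to lack, read 6.57 on LT-HSC CreER and 6.36 on LT-HSC mock, against 6.53 on ST-HSC CreER and 6.43 on ST-HSC mock. Both genes were under the receptor gene level on every array, so their small differences have no readable direction.

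Cma1, the chymase that mast cells store together with Cpa3, read 7.25 on LT-HSC CreER and 7.82 on LT-HSC mock, against 7.60 on ST-HSC CreER and 7.04 on ST-HSC mock. It passed the receptor gene level on 2 arrays, LT-HSC mock and ST-HSC CreER, and the floor on none. Tpsb2, the main mast cell tryptase in this strain, read 8.36 on LT-HSC CreER and 8.73 on LT-HSC mock, against 8.04 on ST-HSC CreER and 7.69 on ST-HSC mock. It was above the receptor gene level on all 4 arrays and above the floor on the 2 LT-HSC arrays. The Tpsb2 difference between LT-HSC-derived and ST-HSC-derived cells was 0.32 on the log2 scale with CreER and 1.05 with mock, which is 2.06-fold and just past the 2-fold threshold. Tpsg1, a related tryptase of the cluster, read 8.14 on LT-HSC CreER and 8.51 on LT-HSC mock, against 8.04 on ST-HSC CreER and 7.60 on ST-HSC mock. Tryptases are close relatives in sequence, so how far the Tpsb2 and Tpsg1 probe sets read separate transcripts was not tested.

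**Figure D1:**
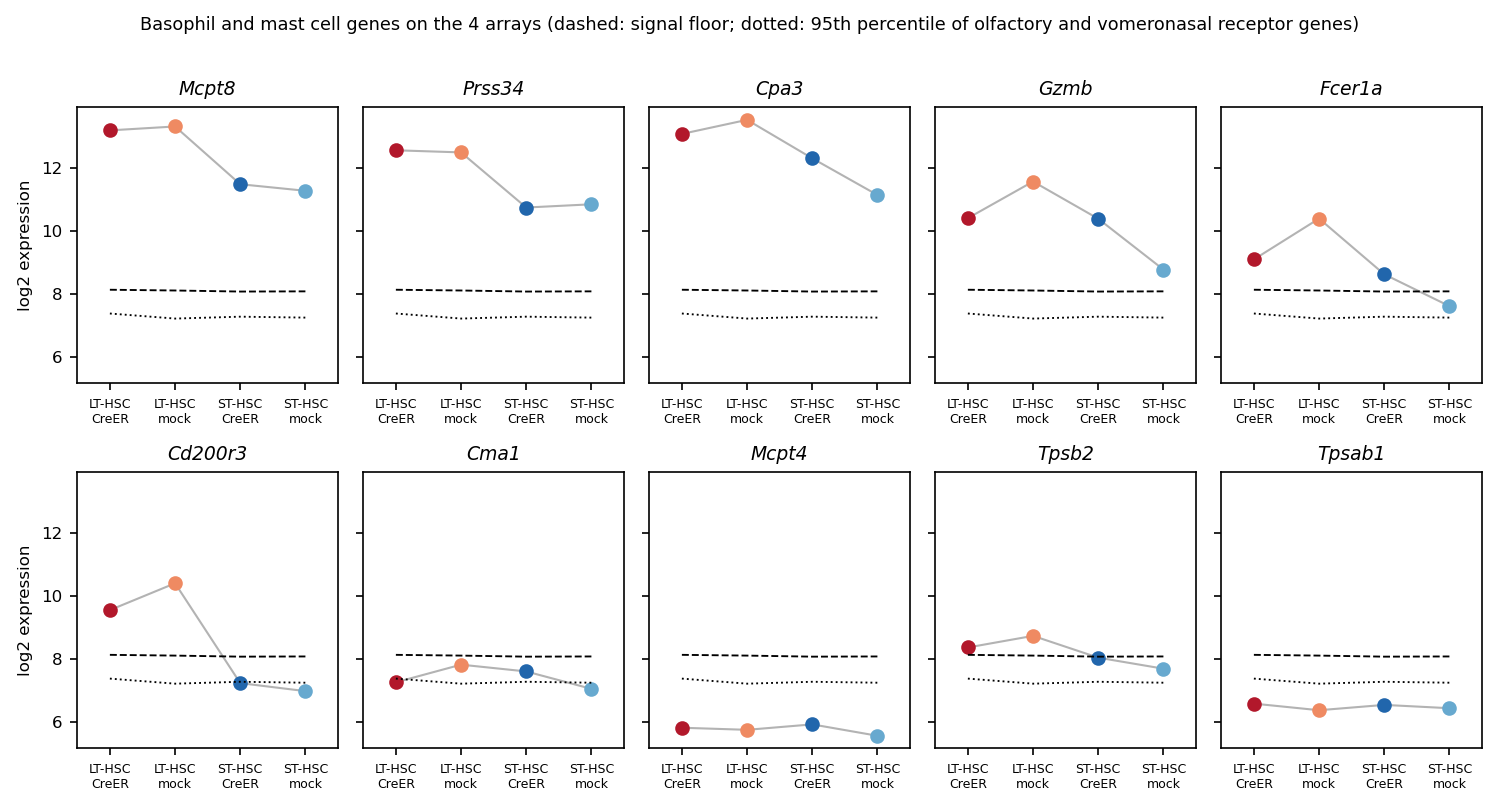
Log2 expression of each of the 10 genes (1 panel a gene) on the LT-HSC CreER, LT-HSC mock, ST-HSC CreER and ST-HSC mock arrays, 1 point an array, with the signal floor dashed and the 95th percentile of receptor genes dotted. Mcpt8 and Prss34 form a high pair of LT-HSC points and a lower pair of ST-HSC points, Gzmb and Fcer1a peak on LT-HSC mock and are lowest on ST-HSC mock, and Mcpt4 and Tpsab1 stay under both lines.

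The protease genes Cpa3 and Gzmb differed by population mainly between the mock arrays. Cpa3, the carboxypeptidase of mast cell granules that basophils also express, was at 13.09 on LT-HSC CreER and 13.54 on LT-HSC mock, against 12.31 on ST-HSC CreER and 11.15 on ST-HSC mock. Gzmb, granzyme B, a serine protease of cytotoxic lymphocytes that is also found in mast cells, was at 10.41 on LT-HSC CreER and 11.57 on LT-HSC mock, against 10.39 on ST-HSC CreER and 8.77 on ST-HSC mock. For both genes the extremes were the mock arrays, LT-HSC mock highest and ST-HSC mock lowest, with the CreER arrays between them. With CreER, Gzmb differed by 0.02 between LT-HSC-derived and ST-HSC-derived cells, which changed sign to -0.05 when each array was centred on its median. With mock it was 6.98-fold higher in LT-HSC-derived cells. Cpa3 was 1.71-fold higher in LT-HSC-derived cells with CreER and 5.25-fold higher with mock.

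The cytotoxic lymphocyte markers, Gzmb not among them, were mostly under the floor, with 1 bright exception. Of the 15 markers, all measured, 1 passed the floor on any array, Nkg7, a granule membrane protein gene that myeloid precursors also express, at 12.99 on LT-HSC CreER and 12.35 on LT-HSC mock, against 12.83 on ST-HSC CreER and 12.56 on ST-HSC mock. The other 14, among them Prf1, Gzma, Cd3e and Ncr1, were under the floor on all 4 arrays. The summed linear signal of the 15 was 9835 on LT-HSC CreER and 6764 on LT-HSC mock, against 8828 on ST-HSC CreER and 7545 on ST-HSC mock. Nkg7 made up most of this sum on each array, and the part of lymphocytes in the Gzmb differences was not tested.

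The receptor genes were higher on both LT-HSC arrays. Fcer1a, the IgE-binding chain of Fc epsilon RI, was at 9.09 on LT-HSC CreER and 10.39 on LT-HSC mock, against 8.62 on ST-HSC CreER and 7.61 on ST-HSC mock, the last under the floor. Cd200r3, an activating receptor of basophils and mast cells that signals through the adaptor Tyrobp, was at 9.55 on LT-HSC CreER and 10.41 on LT-HSC mock, against 7.23 on ST-HSC CreER and 6.97 on ST-HSC mock. Cd200r3 stood under the floor and under the receptor gene level on both ST-HSC arrays, so the size of its difference is uncertain. It was 5.01-fold higher in LT-HSC-derived cells with CreER and 10.8-fold higher with mock. Fcer1a was 1.39-fold higher in LT-HSC-derived cells with CreER and 6.91-fold higher with mock.

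With CreER, 3 of the 10 genes were at least 2-fold higher in LT-HSC-derived than in ST-HSC-derived cells and above the floor on the higher array, against 1.39% of the 10201 genes past the floor on either array. These were Mcpt8, Prss34 and Cd200r3. With mock, 7 of the 10 were at least 2-fold higher in LT-HSC-derived cells, namely Mcpt8, Prss34, Cpa3, Gzmb, Fcer1a, Cd200r3 and Tpsb2, against 2.72% of 10209 genes. None of the 10 was at least 2-fold lower in either comparison, against 0.549% of all genes with CreER and 0.402% with mock. With shares this small, a count of 0 lower says little about a short list. Because the list was chosen with earlier results of these data known, its counts are no independent test. The median difference over all 10 was 0.40 with CreER and 1.85 with mock, while the median over all 19938 genes was 0.04 with CreER and -0.03 with mock, genes under the floor included in each.

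**Figure D2:**
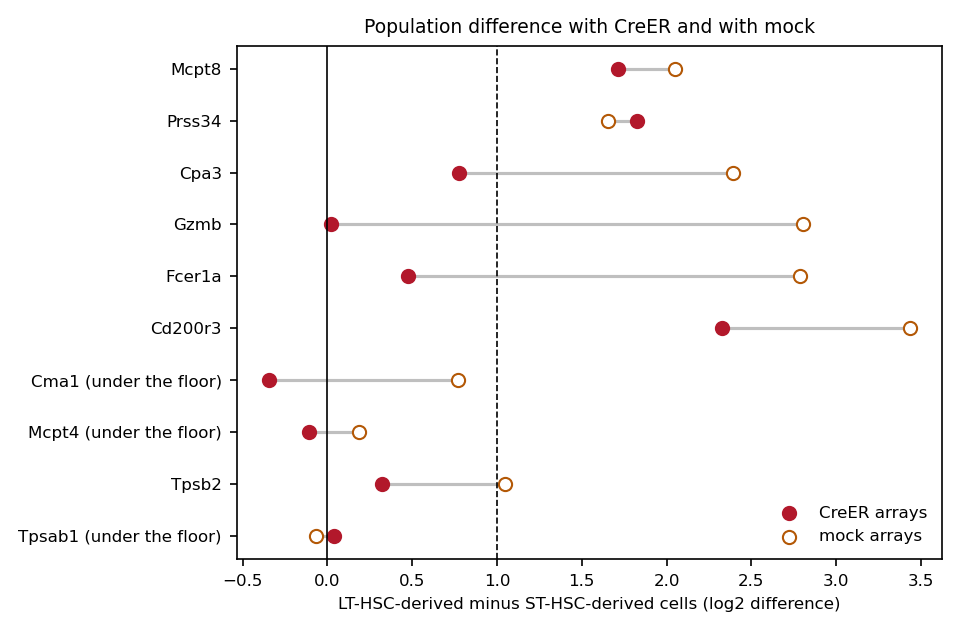
Log2 difference of LT-HSC-derived minus ST-HSC-derived cells for each gene, filled points for the CreER arrays and open points for the mock arrays, with the dashed line at 1 (2-fold). The points of Mcpt8 and Prss34 lie close together beyond 1, whereas those of Cpa3, Gzmb and Fcer1a lie below 1 with CreER and beyond 2 with mock.

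All 4 arrays entered an additive limma model of population and transduction, run over the 10411 genes that passed the floor on any array. Each gene left 1 residual degree of freedom, moderated across genes, and the model takes any opposite CreER difference in the 2 populations as spread. The population term was higher in LT-HSC-derived cells at a limma adjusted p under 0.05 for 394 genes, or 3.78%, and for 3 of the 10 list genes, 7 of which entered the fit. The split of 394 higher and 259 lower genes moved with scaling, to 325 higher and 339 lower when each array was centred on its median. Mcpt8 was higher by 1.88 ± 0.12 (SE, limma adjusted p = 0.00421), Prss34 by 1.74 ± 0.10 (limma adjusted p = 0.00421) and Cd200r3 by 2.88 ± 0.26 (limma adjusted p = 0.00899). Cpa3 (1.58 ± 0.36, limma adjusted p = 0.0716), Tpsb2 (0.68 ± 0.18, 0.0936), Fcer1a (1.63 ± 0.51, 0.13) and Gzmb (1.41 ± 0.61, 0.227) did not pass. Cpa3 passed when no floor was set, with a limma adjusted p of 0.0381, and with the floor at the receptor gene level, with 0.0393. For CreER against mock, limma called 0 of 10411 genes and 0 of the 7, with 1048 genes and 0 of the 7 at an unadjusted p under 0.05. The labels name no separate animals or cultures. The spread behind these p-values is the departure from additivity on these 4 arrays, moderated across genes, and not a spread between replicates. It is small where the CreER difference was alike in both populations, as for Mcpt8 and Prss34, and large where it was not, as for Gzmb.

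In the comparison of CreER with mock, Gzmb and Fcer1a went opposite ways in the populations. In LT-HSC-derived cells both were at least 2-fold lower with CreER, Gzmb by 2.24-fold and Fcer1a by 2.47-fold, which makes 2 of the 10 genes against 0.767% of 10173 genes. In ST-HSC-derived cells both were at least 2-fold higher with CreER, Gzmb by 3.07-fold and Fcer1a by 2.02-fold, and so was Cpa3 by 2.25-fold, which makes 3 of the 10 against 0.438% of 10047 genes. The Fcer1a difference in ST-HSC-derived cells was 1.01 on the log2 scale and started from a mock level under the floor; quantile normalization gave 0.99, short of the threshold. Cpa3 differed by -0.45 in LT-HSC-derived cells, and Cd200r3 by -0.85 for LT-HSC and by 0.26 for ST-HSC origin. Both ST-HSC levels of Cd200r3 were under the receptor gene level, so the direction of the second of these cannot be read. Over all 10 genes, those under the floor included, the median CreER difference was -0.41 for LT-HSC and 0.36 for ST-HSC origin, while over all 19938 genes it was 0.04 for LT-HSC and -0.01 for ST-HSC origin.

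The CreER difference in LT-HSC-derived cells minus that in ST-HSC-derived cells combines the 4 arrays of a gene. It was -2.78 for Gzmb, -2.32 for Fcer1a, -1.62 for Cpa3 and -1.11 for Cd200r3, so 4 of the 10 lay at or below -1 with at least 1 array past the floor, against 1.18% of 10411 genes. For Cd200r3 both ST-HSC levels were under the receptor gene level and its difference in LT-HSC-derived cells alone was -0.85, so its place among the 4 rests on signal at background. The quantity was -0.72 for Tpsb2, -0.33 for Mcpt8 and 0.17 for Prss34. Cma1, under the floor on all 4 arrays, was at -1.12. With no floor set, or with the floor at the receptor gene level, Cma1 was counted as well, which made 5 of the 10. With 4 arrays and 4 groups no spread is left for a test of this quantity.

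**Figure D3:**
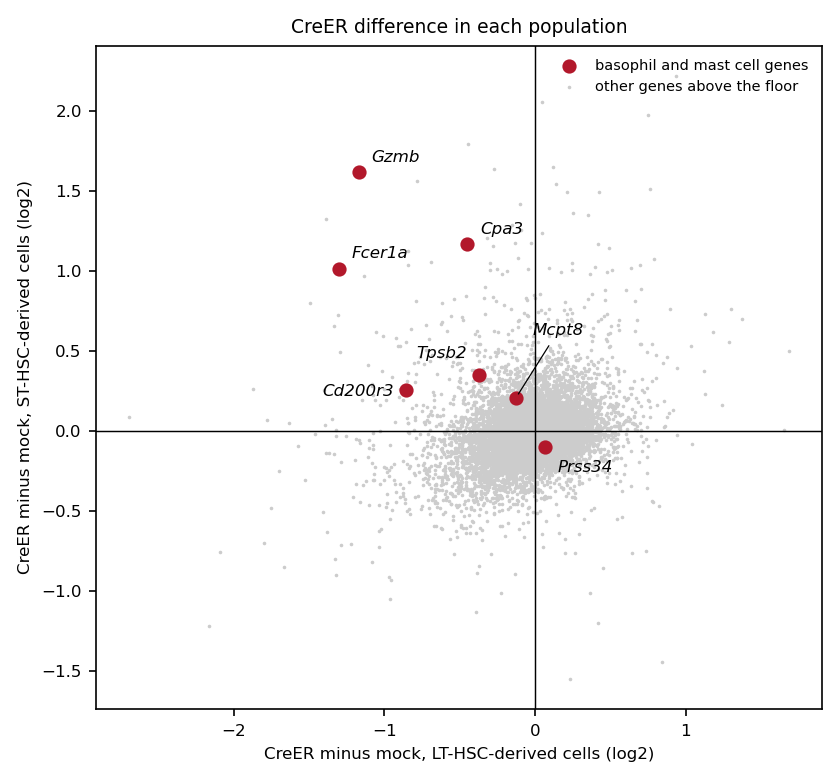
CreER minus mock difference in LT-HSC-derived cells (x axis) and ST-HSC-derived cells (y axis), both log2, for the 7 list genes that passed the floor (large labelled points) and the other genes past it (grey). Gzmb (-1.17 and 1.62), Fcer1a (-1.30 and 1.01) and Cpa3 (-0.45 and 1.17) lie in the upper left, and Mcpt8 and Prss34 lie near the origin.

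Among the 7 genes past the floor, profiles were compared by the root mean square distance between their values on the 4 arrays, each centred on its own mean. Mcpt8 and Prss34 were the closest pair, at 0.15 log2 units, followed by Fcer1a and Gzmb at 0.24, Cpa3 and Fcer1a at 0.31 and Cpa3 and Gzmb at 0.31. Gzmb and Prss34 were 0.77 apart. Among all genes past the floor, the closest to Mcpt8 were Tjp1, a tight junction protein gene (0.07), Itga2b, the platelet integrin chain CD41 that early progenitors and mast cells also carry (0.09), and Pecam1, the adhesion molecule CD31 (0.10). The closest to Cpa3 were the serpin gene Serpinb10 (0.14), Ms4a2, the beta chain of Fc epsilon RI (0.16), and Prg3, an eosinophil granule gene (0.16). Those of Fcer1a were Ctse, an aspartic protease gene (0.14), Tph1, which encodes a tryptophan hydroxylase for serotonin (0.16), and Serpinb10 (0.17). Those of Gzmb were Ctse (0.23), Serpinb10 (0.24) and Fcer1a (0.24). With 4 arrays many genes can share a profile.

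The chymase and granzyme genes lie side by side on chromosome 14, and few of them passed the floor. Of the 13 measured genes of the locus, 3 passed the floor, Mcpt8, Gzmb and Ctsg. Ctsg, cathepsin G, a protease of neutrophil primary granules, was at 13.44 on LT-HSC CreER and 13.24 on LT-HSC mock, against 13.17 on ST-HSC CreER and 13.23 on ST-HSC mock. Mcpt1 and Mcpt2, chymases of mucosal mast cells, read 4.89 to 5.21 on the 4 arrays. The granzyme genes Gzmc, Gzmd, Gzme, Gzmf, Gzmg and Gzmn were under the floor on every array too. Thus the genes between Mcpt8 and Gzmb were under the floor except Ctsg, which differed by 0.01 between LT-HSC-derived and ST-HSC-derived cells with mock.

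The tryptase cluster on chromosome 17 gave a like picture, with 4 of 13 measured genes past the floor, Prss34, Tpsb2, Tpsg1 and Prss27. Prss27, a membrane-anchored serine protease gene, differed by 0.01 between LT-HSC-derived and ST-HSC-derived cells with CreER and by 0.03 with mock. Among 12 measured metallocarboxypeptidase genes, 3 passed the floor, and apart from Cpa3 these were Cpd and Cpq, neither of which differed by 2-fold between LT-HSC-derived and ST-HSC-derived cells.

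The 4 CD200 receptor genes on chromosome 16 all passed the floor on at least 1 array. Cd200r2 was at 9.82 on LT-HSC CreER and 10.87 on LT-HSC mock, against 9.59 on ST-HSC CreER and 8.97 on ST-HSC mock. Cd200r4 was at 10.45 on LT-HSC CreER and 11.21 on LT-HSC mock, against 10.22 on ST-HSC CreER and 9.76 on ST-HSC mock. Cd200r2 differed by 0.23 between LT-HSC-derived and ST-HSC-derived cells with CreER and by 1.90 with mock, and Cd200r4 by 0.22 with CreER and 1.45 with mock. Cd200r1, the inhibitory receptor of the family, differed by -0.32 with CreER and 0.56 with mock. The genes of this family are close relatives, so cross-hybridisation between their probe sets was not tested. Tyrobp, the adaptor of the activating receptors of the family, stood between 13.32 and 13.53 on the 4 arrays.

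**Figure D4:**
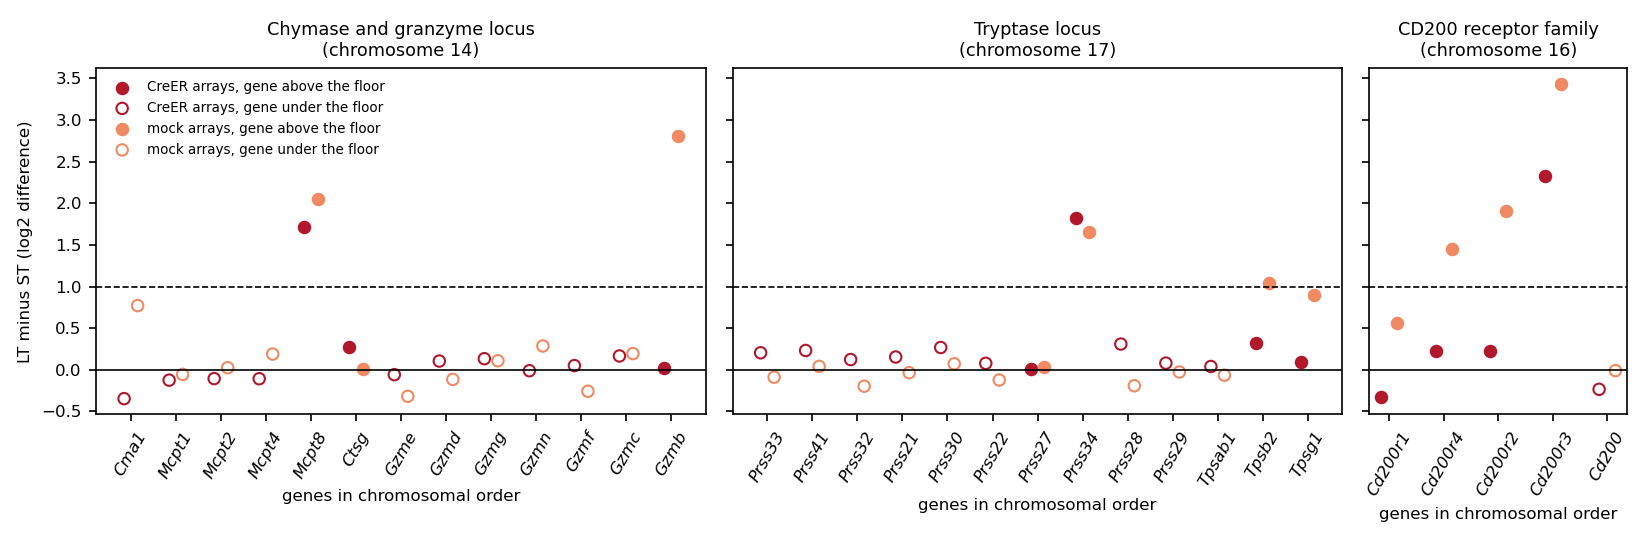
Log2 difference of LT-HSC-derived minus ST-HSC-derived cells with CreER (dark) and with mock (light) for the measured genes of the chymase and granzyme locus, the tryptase locus and the CD200 receptor family, in chromosomal order. Filled points passed the signal floor on at least 1 array and open points on none. Mcpt8 and Prss34 stand out with CreER and with mock, and Gzmb with mock (2.80) but not with CreER (0.02). Filled points of Tpsb2 (1.05) and Tpsg1 (0.90) with mock lie off 0 too. Open Cma1 lies at 0.77 with mock and -0.35 with CreER. The 4 CD200 receptor genes are all filled.

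The companions of Fcer1a in the IgE receptor differed unequally. Ms4a2, the beta chain, was at 9.59 on LT-HSC CreER and 10.07 on LT-HSC mock, against 8.60 on ST-HSC CreER and 7.89 on ST-HSC mock. The population term of limma was higher for Ms4a2 (adjusted p = 0.0405). Fcer1g, the gamma chain shared with Fc receptors of other myeloid cells, stayed between 13.72 and 13.91 on all 4 arrays. Of 14 measured genes of the receptor and its proximal signalling, Fcer1a among them, 2 were at least 2-fold higher in LT-HSC-derived cells with CreER and 4 with mock. The shares of all genes were 1.39% with CreER and 2.72% with mock. The 4 were Fcer1a itself, Ms4a2, Fyn and Lat, each under the floor on ST-HSC mock. None was at least 2-fold lower, against 0.549% of all genes with CreER and 0.402% with mock. The medians over the 14 were 0.10 with CreER and 0.23 with mock. Lat, the membrane adaptor of the pathway, was 1.65 higher with CreER and 2.39 higher with mock (limma adjusted p = 0.0092), and the kinase gene Fyn was 1.30 and 2.03 higher (limma adjusted p = 0.0143), with both ST-HSC levels of Fyn under the floor. Syk, the kinase recruited by the receptor, differed by -0.16 in both comparisons.

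Some genes of granule loading were higher on the LT-HSC arrays. Of 16 measured genes of granule storage and release, 3 were at least 2-fold higher in LT-HSC-derived cells in each comparison. The shares of all genes were 1.39% with CreER and 2.72% with mock. None of the 16 was at least 2-fold lower, against 0.549% of all genes with CreER and 0.402% with mock. Hdc, which makes histamine, was 1.75 higher with CreER and 2.74 higher with mock. Slc18a2, the vesicular monoamine transporter, was 1.95 and 3.23 higher, with its ST-HSC mock level under the floor. Rab27b, a small GTPase of secretory granules, read 8.62 on LT-HSC CreER and 9.30 on LT-HSC mock, and was under the receptor gene level on both ST-HSC arrays. Srgn, the proteoglycan core that holds proteases in granules, lay between 13.83 and 13.92 on the 4 arrays, and the medians over the 16 were -0.07 with CreER and 0.07 with mock.

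Among 19 regulators of mast cells and basophils, 3 were at least 2-fold higher in LT-HSC-derived cells in each comparison, Gata2, Gata1 and Ikzf2. The shares of all genes were again 1.39% with CreER and 2.72% with mock, as for the lists that follow. Gata1 was under the floor on both ST-HSC arrays, at 7.50 with CreER and 7.31 with mock. Gata2, a transcription factor that mast cells and basophils require, was at 11.70 on LT-HSC CreER and 11.94 on LT-HSC mock, against 9.41 on ST-HSC CreER and 8.92 on ST-HSC mock (limma adjusted p of the population term = 0.00554). Mitf, the transcription factor needed for mast cell identity, differed by -0.35 with CreER and -0.08 with mock, and Cebpa, which favours the basophil fate in mice, by 0.12 and -0.28. Of 24 measured surface and cytokine receptor genes, 5 were at least 2-fold higher in LT-HSC-derived cells with CreER and 6 with mock. Kit, high on mast cells and low on basophils, was 0.32 higher with CreER and 0.40 higher with mock. Mrgprb2, the receptor for basic secretagogues on connective tissue mast cells, and its relative Mrgprb1 were under the receptor gene level on every array. Of 11 measured cytokine and mediator genes, 3 were at least 2-fold higher in LT-HSC-derived cells with CreER and 5 with mock. None of the 11 was at least 2-fold lower, against 0.549% of all genes with CreER and 0.402% with mock. Il4, a cytokine of type 2 immunity that basophils secrete, read 9.25 on LT-HSC CreER and 10.15 on LT-HSC mock, and was under the floor on both ST-HSC arrays, at 6.95 with CreER and 7.28 with mock. Tph1 went the same way as Fcer1a and Gzmb between CreER and mock, with a difference of -1.39 for LT-HSC and of 1.32 for ST-HSC origin, though its ST-HSC mock level was under the receptor gene level.

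Markers of other lineages differed between the arrays as well, and their counts stand against the same shares of all genes, 1.39% higher in LT-HSC-derived cells with CreER and 2.72% with mock, and 0.438% higher on ST-HSC CreER than on ST-HSC mock. Of 8 measured eosinophil markers, 0 were at least 2-fold higher in LT-HSC-derived cells with CreER and 4 with mock, and 4 were at least 2-fold higher with CreER than with mock in ST-HSC-derived cells. Their summed linear signal was 22953 on LT-HSC CreER and 20716 on LT-HSC mock, against 16394 on ST-HSC CreER and 7510 on ST-HSC mock. Of 8 measured megakaryocyte and platelet markers, 6, among them Itga2b, were at least 2-fold higher in LT-HSC-derived cells in each comparison, and their sum was 16667 on LT-HSC CreER and 15366 on LT-HSC mock, against 5513 on ST-HSC CreER and 4566 on ST-HSC mock. The neutrophil list of 14 had 1 gene at least 2-fold lower on LT-HSC CreER than on ST-HSC CreER, against 0.549% of all genes. Retnlg and Cxcr2 were at least 2-fold higher on LT-HSC mock than on ST-HSC mock. Between those mock arrays, however, 10 of the 14 lay below 0 and 4 above, with a median of -0.16. Mmp9, Cxcr2 and Retnlg were also at least 2-fold higher on ST-HSC CreER than on ST-HSC mock, by 2.05, 1.64 and 1.57 on the log2 scale. Their CreER difference in LT-HSC-derived cells minus that in ST-HSC-derived cells was -2.01 for Mmp9, -1.91 for Cxcr2 and -2.35 for Retnlg, beside -2.78 for Gzmb and -2.32 for Fcer1a. These 3 do not stand for the list: the same quantity was above 0 for 9 of the 14 and below 0 for 5, with a median of 0.08. The sum of the 14 neutrophil markers was 145017 on LT-HSC CreER and 117355 on LT-HSC mock, against 164620 on ST-HSC CreER and 137398 on ST-HSC mock. Of 8 measured monocyte and macrophage markers, 1 was at least 2-fold lower in LT-HSC-derived cells with mock, against 0.402% of all genes, and 3 were at least 2-fold lower on LT-HSC CreER than on LT-HSC mock, against 0.767% of all genes. Their sum was 22249 on LT-HSC CreER and 34057 on LT-HSC mock, against 29094 on ST-HSC CreER and 36184 on ST-HSC mock. The sums are dominated by the brightest probe sets, and the part of these cell types in the differences above was not tested.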

How the data were processed

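RNA from colony-forming cells was labelled with biotin and hybridised to whole-transcript arrays, per the labels' protocols. The deposited table holds log2 expression for each probe set (the log scale is inferred from the values), made by the authors with Affymetrix Expression Console, per the submitters' processing notes. The program version, summarisation and normalization were not given in the sources used here. Values were taken as deposited. Whether the deposited values compress differences near background was not tested.

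Of 35556 probe sets, 21789 had 1 gene symbol, 1621 several and 12146 none; genes with more than 1 probe set (999) took the one with the highest mean. The RefSeq table of GRCm38.p6 held the gene of 21698 probe sets, and 0 symbols changed. The size rule asked for 2-fold or more and a level above the floor on the higher array. limma 3.58.1 in R 4.3.3 (lmFit, eBayes) was used with Benjamini-Hochberg adjustment over all genes tested; prior degrees of freedom were 4.27. The steps were tested on simulated data.

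The genes and lists were chosen with earlier results of these data known. There were 18 lists with 207 entries, 191 of them measured. Besides the 10 genes, a rule picked up to 4 genes a list by the largest difference with mock. It also picked the 3 closest profiles of Mcpt8, Cpa3, Fcer1a and Gzmb. The results above name only some of the list genes so picked. Among those left out were Mrgpra6 (4.01, LT-HSC mock minus ST-HSC mock) and Il6 (3.68), each the largest of its list. The lower genes Irf8 (-0.85) and Ctsc (-0.46) were left out too. Other list genes were chosen after their values were seen. The difference of CreER differences and its alternatives were added after seeing the data. Alternatives were 3 normalizations, 3 floors, the mean of probe sets, thresholds of 1.5-fold, 3-fold and an adjusted p of 0.1, and an eBayes trend.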

Additional observations from a re-analysis of the deposited data

Results flagged for a closer look

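Given here is each list gene past the floor on at least 1 array whose CreER minus mock difference had opposite signs in the 2 populations. This held for 7 genes as measured, which were all those past the floor, 5 of them on an ST-HSC array. The share of all genes with opposite signs was not counted, so the 7 cannot be set against it. Small differences enter too, as for Mcpt8 (-0.12 for LT-HSC and 0.21 for ST-HSC origin) and Prss34 (0.07 and -0.10). With 1 array a group the difference was not tested. The CreER difference in LT-HSC-derived cells minus that in ST-HSC-derived cells was -2.78 for Gzmb, -2.32 for Fcer1a, -1.62 for Cpa3 and -1.11 for Cd200r3. It was -0.72 for Tpsb2, -0.33 for Mcpt8 and 0.17 for Prss34. Tpsb2 and Cd200r3 were under the floor on both ST-HSC arrays, and Cd200r3 also under the receptor gene level there, so the sign of its difference in ST-HSC-derived cells cannot be read.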

How the results depend on the processing

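Each of the 10 list genes had 1 probe set, so the mean of probe sets could not move its differences. Centring moved every gene of a comparison by the same amount. With these 2 settings counted in, 199 of 200 recomputed differences of the 10 genes stayed within 0.1 of the deposited values over all normalizations, with a largest move of 0.10. The count therefore overstates how far stability was tested. The sign changed in 4, none of them past the size rule: Mcpt4 for LT-HSC CreER against LT-HSC mock (-0.02, cyclic loess), Tpsab1 for LT-HSC-derived against ST-HSC-derived cells with CreER (-0.03 with cyclic loess and with centring) and Gzmb in that comparison (-0.05, centring). At 3-fold, 0 list genes passed for LT-HSC CreER against LT-HSC mock and 1, Gzmb, for ST-HSC CreER against ST-HSC mock. At an adjusted p of 0.1 limma called 5 list genes for population. With the floor at the 75th percentile, Tpsb2 was lost with mock and Cd200r3 with CreER between the populations, and Fcer1a between CreER and mock in ST-HSC-derived cells. Counts over all genes moved by over 1.5 times from 89, 52, 319, 198 and 142 (CreER against mock within LT-HSC-derived and then ST-HSC-derived cells, LT-HSC-derived against ST-HSC-derived cells with mock and with CreER, and the difference of CreER differences). At 1.5-fold they were 417, 200, 825, 697 and 506, and at 3-fold 12, 7, 143, 67 and 29, by construction. With the floor at the 75th percentile, which tests fewer genes, they were 53 in LT-HSC-derived cells for CreER against mock, 169 with mock and 93 with CreER between the populations, and 94 for the difference of differences. The limma count for population, 653 (394 higher and 259 lower), was 368 with cyclic loess (257 higher and 111 lower; the cause was not tested), 186 with the higher floor and 1401 at an adjusted p of 0.1. No paired analysis was possible because each group held 1 array. The number of arrays and signal near background limit the values of Cma1, Mcpt4, Tpsab1 and Tpsb2. They also limit, on the ST-HSC arrays, those of Cd200r3, Rab27b, Il4, Fyn, Gata1, Tpsg1, Tjp1 and Mrgpra6. On ST-HSC mock, Fcer1a, Ms4a2, Lat, Slc18a2, Tph1 and Ikzf2 were under the floor too.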
